A study of Pyrus betulifolia with 6 samples.

Results

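The genes described here encode the enzymes of flavonoid biosynthesis in root tips of the pear rootstock Pyrus betulaefolia. They were chosen by their KEGG pathway annotation in the deposited expression table, as genes of the flavonoid (ko00941), anthocyanin (ko00942), flavone and flavonol (ko00944) or stilbenoid (ko00945) pathway that are not also assigned to the general phenylpropanoid pathway (ko00940). This gave 46 of the 37815 genes in the table. The 65 genes of the stilbenoid pathway all carry the phenylpropanoid pathway too and were left out by this rule, so no stilbenoid gene is among the 46. Those 65 genes were annotated as 46 shikimate O-hydroxycinnamoyltransferases, 8 caffeoyl-CoA O-methyltransferases, 6 coumaroylquinate 3'-monooxygenases and 5 trans-cinnamate 4-monooxygenases.

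Wild-type seedlings were raised from seed and moved to nutrient solution. The B deficiency group received no boron (0 mM) for 24 h, and the control group received 0.045 mM boron. Root tips were sequenced in 3 libraries per group, which the labels call biological replicates. The labels and methods do not say which plants went into which library, so the p-values below rest on the spread between these libraries. Several plants shared a box of nutrient solution, and the number of boxes is not given. Libraries of a group may therefore share a box, and the p-values cannot separate a box from the boron treatment.

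Flavonoids are made from coumaroyl-CoA, a product of the general phenylpropanoid pathway, and malonyl-CoA. Chalcone synthase (CHS) joins these into a chalcone, chalcone isomerase (CHI) closes its ring to give a flavanone, and flavanone 3-hydroxylase (F3H) and flavonoid 3'-hydroxylase (F3'H) add hydroxyl groups. From there flavonol synthase (FLS) leads to flavonols. Dihydroflavonol 4-reductase (DFR) leads to leucoanthocyanidins, from which leucoanthocyanidin reductase (LAR) makes catechin. Anthocyanidin synthase (ANS) followed by anthocyanidin reductase (ANR) makes epicatechin, and catechin and epicatechin are the units of proanthocyanidins, the condensed tannins. UDP-glycosyltransferases then attach sugars. Boron crosslinks pectin in the plant cell wall, and root tips respond early when it is withheld. In bulk tissue, fewer cells of a type and less RNA per cell cannot be told apart.

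As a set, the 46 genes were highly expressed in both groups and their sum changed little. This covers the chosen genes only, and counts with the 65 left-out genes kept are given in the last section. Expression is given as FPKM, the fragments of a gene corrected for its length and for the depth of the library. The 46 genes together summed to 7474 ± 110 FPKM in B deficiency, against 7063 ± 52.7 FPKM in control libraries (SD, n = 3 each), a difference of 5.83%. Their share of all FPKM was 0.762% to 0.793% per B deficiency library, against 0.739% to 0.745% per control library. The difference depends on scaling. Median-of-ratios scaling between libraries divides B deficiency values by 0.982 to 0.989 and control values by 1.02, which widens it. Of the 46 genes, 16 averaged at least 100 FPKM, 26 averaged at least 10 FPKM, and 18 were among the 5% most expressed genes of the table. A further 8 had a mean under 0.5 FPKM and were not tested.

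The libraries were compared with limma on a log2(FPKM + 0.1) scale, as B deficiency minus control, over the 28129 genes whose mean reached 0.5 FPKM. Called genes had a log2 fold change of 1 or more in either direction and a Benjamini-Hochberg adjusted p under 0.05. SE below is the standard error of the log2 fold change, and for weakly expressed genes the added 0.1 FPKM shrinks the fold. Over all genes tested, 8.19% were called, 4.37% higher and 3.83% lower in B deficiency. Of the 38 flavonoid genes tested, 2 were called higher and 0 were called lower by limma, and at an unadjusted p under 0.05 there were 13 higher and 6 lower. The share of all genes at an unadjusted p was not computed. Counts at an unadjusted p, here and below, therefore have no background to be read against. At an adjusted p under 0.05 the share of all genes tested was already 27.3%. Both called genes were minor copies, under 6 FPKM in every library. None of the 16 genes with at least 100 FPKM was called, where 3.07% of the 1630 genes at that level were.

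Without the minimum fold, an adjusted p under 0.05 was reached by 9 of the 38 flavonoid genes with B deficiency higher and by 4 with B deficiency lower, against 12% (higher) and 15.4% (lower) of all genes tested. With median-of-ratios scaling between libraries these counts were 11 and 2. With each library left out in turn, 6 of the 9 and 1 of the 4 kept an adjusted p under 0.05 in all 6 fits. The median log2 fold change was 0.11 for the 38 genes and -0.05 for all genes tested. With median-of-ratios scaling these medians were 0.16 and -0.005. For 22 of the 38 genes the 95% interval of the log2 fold change lay within 0.5 of no change, against 44.1% of all genes tested. Among those with at least 100 FPKM this held for 14 of 16 genes, against 73.1% of genes at that level. In 22 of the 38 genes the libraries of B deficiency and control did not overlap, 15 of them with B deficiency higher and 7 with B deficiency lower. Over all genes tested the groups did not overlap in 45.1%, with B deficiency higher in 18.5% and lower in 26.6%. At 100 FPKM or more the groups did not overlap in 11 of 16 flavonoid genes, against 57.6% of all genes at that level.

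**Figure D1:**
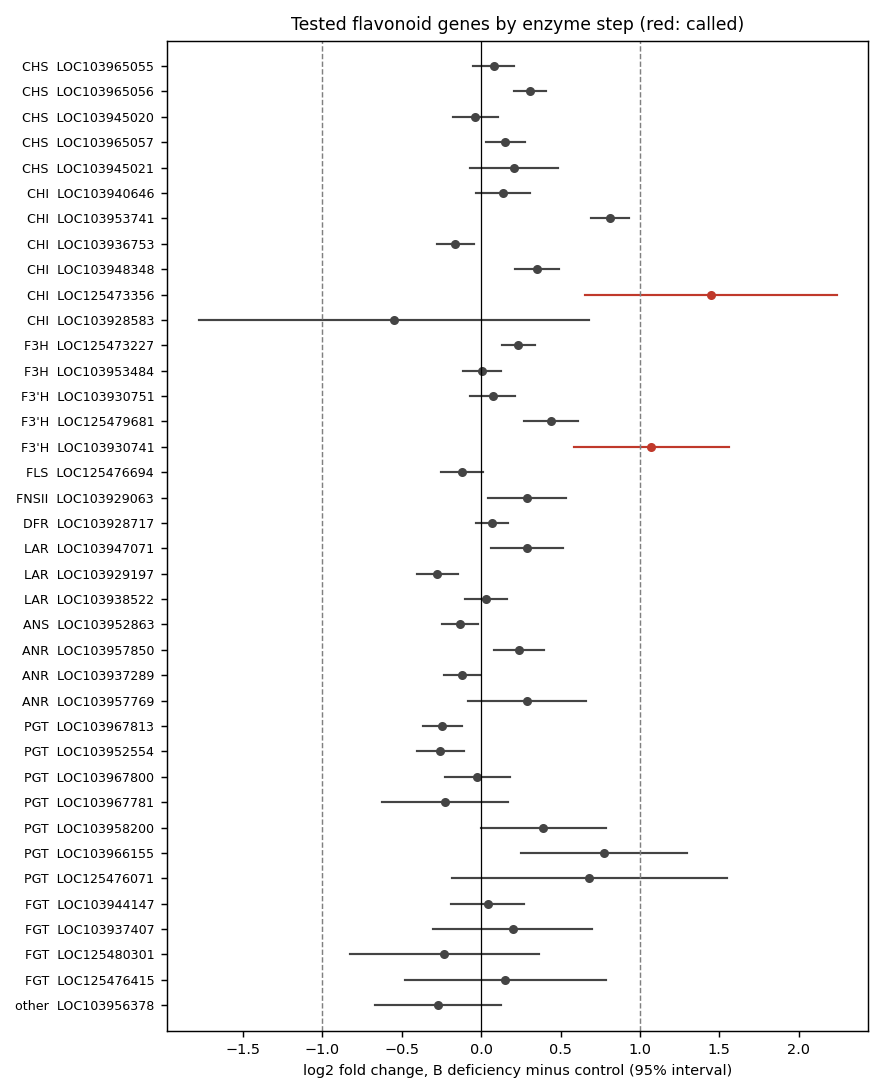
Log2 fold change of each of the 38 flavonoid genes tested (B deficiency minus control, limma on log2(FPKM + 0.1)), with its 95% interval, in the order of the enzyme steps; dashed lines mark the minimum fold and red marks called genes. Only a minor CHI copy (1.45) and a minor F3'H copy (1.07) lie past the line, while CHI 3 (0.81) lies just inside it with a narrow interval.

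B deficiency library 2 stood apart from libraries 1 and 3 of its group. Its correlation with these over all genes was 0.979 and 0.980 on the log2 scale, whereas B deficiency libraries 1 and 3 had 0.986, as did each pair of control libraries. limma's library weight was 0.238 for it and between 1.17 and 1.44 for the others. Without this library 2 flavonoid genes were called higher and 0 lower, and without the minimum fold 12 were higher and 8 were lower. The depth of the libraries, taken from the steps in which low FPKM values move, was between 1.00 and 1.12 times that of B deficiency library 1. For the tissue label, 72 genes were matched by name as root markers, many of them CASP-like or Casparian strip genes. Of these 72, 61 were tested, 2 were called higher and 4 lower, and 4 were listed at 0 in all libraries. The list mixes genes of several root cell types, so it cannot establish a root tip label. PLT2 (LOC103963467), a regulator of the root stem cell niche in Arabidopsis, had 29.4 FPKM in B deficiency, against 32.6 FPKM in control libraries. Another PLT2 gene, LOC103967847, had 4.53 FPKM in B deficiency, against 5.93 FPKM in control libraries. Other genes of the list moved further, in both directions, and partly by gene type. The tested BEARSKIN2 and SOMBRERO genes were all lower, with log2 fold changes from -1.02 to -0.51. The tested SHORT-ROOT-like genes were lower too (-0.45 to -0.32). The tested genes described as casparian strip membrane proteins were all higher (0.18 to 2.81), and CASP-like genes went both ways. BEARSKIN2 (LOC103956584) was called lower, with 3.38 FPKM in B deficiency, against 6.96 FPKM in control libraries. The CASP-like protein 1E2 gene LOC103958558 was called higher, with 4.88 FPKM in B deficiency, against 0.03 FPKM in control libraries. The summed FPKM of the 72 root markers was between 975 and 1026 in B deficiency, against between 1056 and 1080 in the control. Their median log2 fold change was -0.09, and 9.84% of those tested were called. Of 58 genes matched by name as markers of green tissue, 30 were tested, of which 8 were called lower and 0 higher by limma (26.7%). At an unadjusted p under 0.05 there were 2 higher and 16 lower. The 30 tested genes had a median log2 fold change of -0.74. The summed FPKM of all 58 was between 640 and 688 in B deficiency, against 682 to 718 in the control. Most of it came from the Rubisco small chain gene LOC103928816, with 547 FPKM in B deficiency, against 516 in the control. The part of these markers in the flavonoid values was not tested.

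Chalcone synthase, the entry step, has 6 annotated genes, of which 5 were tested. The most expressed copy, LOC103965055, had 881, 958 and 885 FPKM in B deficiency, against 881, 866 and 833 FPKM in control libraries (log2 fold change 0.08, SE 0.0543, adjusted p = 0.333). The ranges of the groups met, and a change was not detected for this copy. LOC103965056 had 438, 454 and 434 FPKM in B deficiency, against 358, 361 and 353 FPKM in control libraries. Every B deficiency library of this copy lay above every control library, and it was higher by 0.31 on the log2 scale (SE 0.0435, adjusted p = 0.00235), under the minimum fold. Its share of the summed CHS expression was 22.2% in B deficiency, against 19.5% in the control, while the share of LOC103945020 was 15.6% in B deficiency, against 17.4% in the control.

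The other tested CHS genes did not pass the test at any fold. LOC103965057, described as polyketide synthase 5-like, had 228 FPKM in B deficiency, against 205 FPKM in control libraries (adjusted p = 0.0695). LOC103945021 had 94.2, 128 and 93.4 FPKM in B deficiency, against 86.4, 92.2 and 91.8 FPKM in control libraries, so that library 2 carried most of its difference. The sixth, LOC125471288, stayed at or under 0.17 FPKM in every library. Summed over the copies, CHS had 1922, 2116 and 1944 FPKM in B deficiency, against 1853, 1845 and 1796 FPKM in control libraries, a ratio of 1.09. Sums over a step are given as a description with no test.

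The copies of chalcone isomerase differed among themselves. Its 6 genes summed to 885, 813 and 884 FPKM in B deficiency, against 692, 675 and 683 FPKM in control libraries, a ratio of 1.26. Most of this came from LOC103953741, described as probable chalcone--flavonone isomerase 3. In Arabidopsis, proteins of this CHI-like kind are not isomerases themselves but promote flavonoid production. LOC103953741 had 353, 326 and 359 FPKM in B deficiency, against 200, 194 and 197 FPKM in control libraries. The groups were far apart for this gene, with the lowest B deficiency library well above the highest control library. Its log2 fold change was 0.81 (SE 0.052, adjusted p = 8.28e-05), just under the minimum fold, and stayed between 0.78 and 0.86 in all alternatives tried. CHI 3 made up 40.2% of the CHI expression in B deficiency, against 28.8% in the control.

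The copies described as chalcone isomerase proper differed in direction. LOC103940646, the most expressed of them in the control, had 343, 288 and 340 FPKM in B deficiency, against 295, 294 and 290 FPKM in control libraries (log2 fold change 0.14, SE 0.0733, adjusted p = 0.208). B deficiency library 2 lay just below the control libraries and the other B deficiency libraries lay above them. Without library 2 the log2 fold change was 0.22 with an adjusted p of 0.0005, where the alternatives gave up to 0.452. LOC103936753 was lower in B deficiency by a small amount, with 131, 136 and 127 FPKM against 152, 143 and 147 FPKM in control libraries (log2 fold change -0.16, adjusted p = 0.0464). With a library left out, its adjusted p was under 0.05 in 1 of the 6 fits (up to 0.157). LOC103948348 was higher, with 55.3, 59.0 and 55.1 FPKM in B deficiency, against 43.1, 42.8 and 46.8 FPKM in control libraries (log2 fold change 0.35, adjusted p = 0.00525). The groups did not overlap in either of these copies, and neither passed the minimum fold.

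The called CHI copy, LOC125473356, was expressed at a far lower level. It had 2.45, 3.25 and 2.44 FPKM in B deficiency, against 1.38, 0.52 and 1.07 FPKM in control libraries. All B deficiency libraries lay above all control libraries, and the control libraries varied among themselves. The log2 fold change was 1.45 (SE 0.338, adjusted p = 0.0184). It was called with each library left out in turn, and with a pseudocount of 1 FPKM its log2 fold change was 0.92. Its share of the summed CHI expression was 0.318% in B deficiency, against 0.144% in the control. The remaining copy, LOC103928583, had 0.49, 0.16 and 0.58 FPKM in B deficiency, against 0.44, 0.44 and 1.02 FPKM in control libraries, with an interval too wide (-1.78 to 0.68) to show a direction. RSEM divides reads among similar copies by estimation, so the value of a minor copy beside a strongly expressed one is uncertain.

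**Figure D2:**
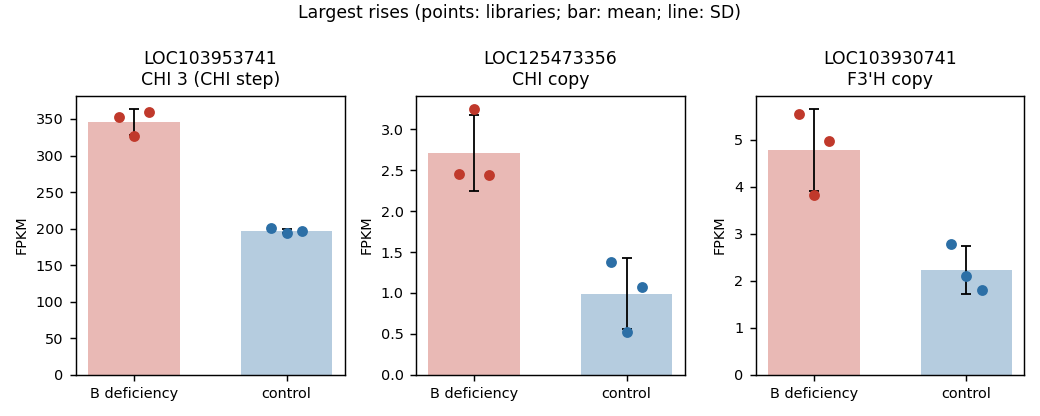
FPKM of the 3 genes with the largest rises in log2 fold change among those with an adjusted p under 0.05: points are libraries, bars are group means and lines are the SD (n = 3 each), B deficiency left of the control. CHI 3 (LOC103953741) lies between 326 and 359 FPKM in B deficiency, against between 194 and 200 FPKM in control libraries, while both called copies stay under 6 FPKM.

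Flavanone 3-hydroxylase converts flavanones to dihydroflavonols and is encoded by 2 genes here. LOC125473227 had 585, 559 and 584 FPKM in B deficiency, against 493, 495 and 481 FPKM in control libraries. The groups did not overlap, and the gene was higher by 0.23 on the log2 scale (SE 0.0448, adjusted p = 0.00836), under the minimum fold. Without control library 3 its adjusted p was 0.0537. The second gene, LOC103953484, had 199, 218 and 201 FPKM in B deficiency, against 207, 202 and 206 FPKM in control libraries, which overlapped (log2 fold change 0.01, 95% interval -0.11 to 0.13). The F3H sum was 1.13 times that of the control.

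Flavonoid 3'-hydroxylase, a cytochrome P450 that adds a hydroxyl group to the B ring, showed the other called gene. The dominant copy, LOC103930751, had 362, 408 and 358 FPKM in B deficiency, against 358, 350 and 362 FPKM in control libraries (log2 fold change 0.07, SE 0.0609, adjusted p = 0.419), and its groups overlapped. LOC125479681 was higher, with 54.9, 60.2 and 52.8 FPKM in B deficiency, against 41.5, 38.8 and 43.4 FPKM in control libraries (log2 fold change 0.44, adjusted p = 0.00418). The called copy, LOC103930741, had 5.54, 3.82 and 4.97 FPKM in B deficiency, against 2.79, 2.09 and 1.81 FPKM in control libraries. No B deficiency library overlapped with the control, and the log2 fold change was 1.07 (SE 0.208, adjusted p = 0.00898). This call lies near the minimum fold and was lost when B deficiency library 1 (0.96) or control library 3 (0.94) was left out and with a pseudocount of 1 FPKM (0.84).

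Within the chosen genes, the changes of the minor F3'H copies left the step sum close to the control. Genes described as flavonoid 3'-monooxygenase-like that the rule did not choose are given with the oxygenases below. F3'H summed to 422, 472 and 416 FPKM in B deficiency, against 403, 391 and 407 FPKM in control libraries, a ratio of 1.09. The dominant copy held 86.1% of this sum in B deficiency, against 89.1% in the control. The fourth gene, LOC125479682, was listed at 0 or 0.05 FPKM in every library.

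**Figure D3:**
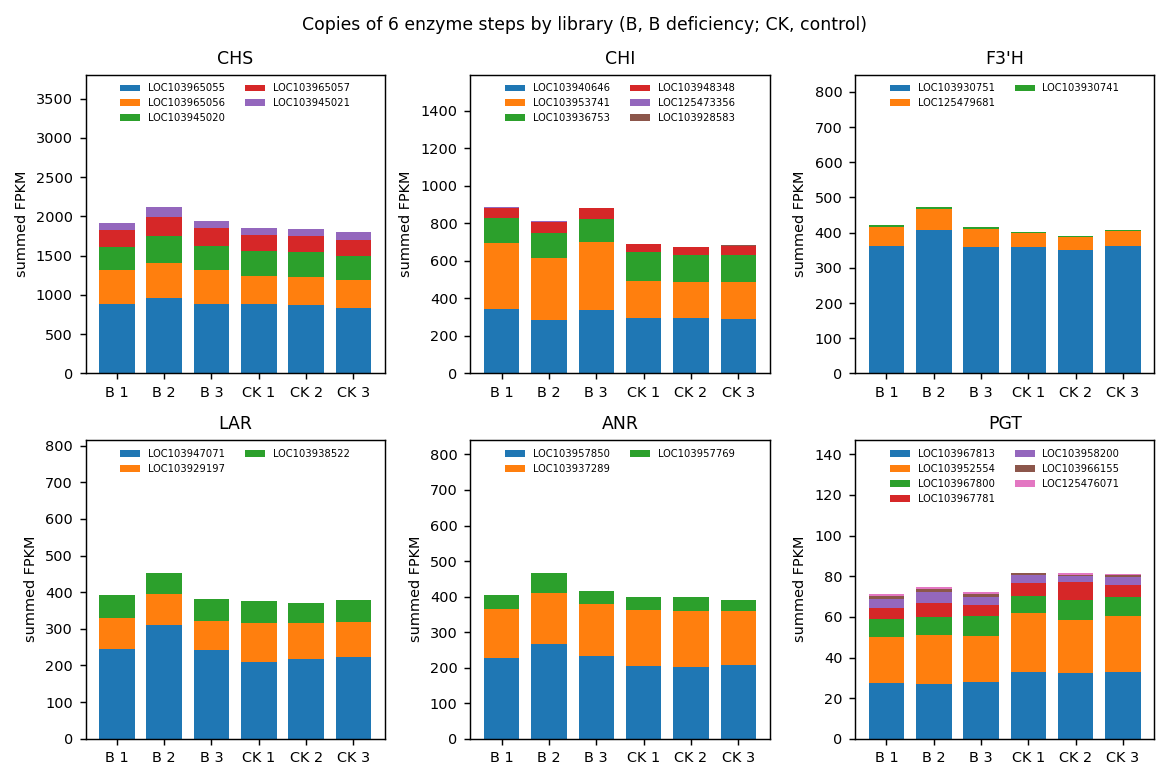
Summed FPKM of the copies of 6 enzyme steps in each library (B, B deficiency, left; CK, control, right), with a colour for each gene; PGT stands for the phloretin-type glycosyltransferases. The CHI sum reaches 813 to 885 FPKM in B deficiency, against 675 to 692 FPKM in control libraries, mainly through CHI 3 (LOC103953741), while the PGT sum is lower in B deficiency.

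The branch to flavonols rested on 1 gene. LOC125476694, annotated as flavonol synthase by its KEGG ortholog and described otherwise only as a hypothetical protein with a dioxygenase domain, ranked 43 in mean FPKM among all genes and was the most expressed of the 46. It had 1353, 1220 and 1338 FPKM in B deficiency, against 1414, 1410 and 1431 FPKM in control libraries. Every B deficiency library lay below every control library, with library 2 the lowest, but the difference did not pass the test (log2 fold change -0.12, SE 0.0563, adjusted p = 0.15). It did pass without B deficiency library 2 (log2 fold change -0.08, adjusted p = 0.0124) and with quantile normalization (-0.25, adjusted p = 0.0159), where the alternatives gave up to 0.368. The other FLS genes, LOC103933697 and LOC103956721, stayed at or under 0.29 FPKM in every library.

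For flavone synthase II, which makes flavones from flavanones, LOC103929063 had 6.92, 7.50 and 7.39 FPKM in B deficiency, against 5.59, 6.62 and 5.61 FPKM in control libraries. The groups did not overlap, and the log2 fold change of 0.29 did not pass the test (SE 0.105, adjusted p = 0.0796). This gene is described as licodione synthase-like, a related P450 activity. The second gene of this step, LOC125470358, was listed at 0 in all 6 libraries.

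The late steps toward proanthocyanidins were also strongly expressed. Dihydroflavonol 4-reductase is represented by a single gene, LOC103928717, with 773, 792 and 784 FPKM in B deficiency, against 761, 738 and 745 FPKM in control libraries. The B deficiency libraries were all above the control libraries, by a margin that did not pass the test (log2 fold change 0.07, SE 0.0435, adjusted p = 0.301). Anthocyanidin synthase, likewise a single gene (LOC103952863, described as leucoanthocyanidin dioxygenase), had 346, 373 and 350 FPKM in B deficiency, against 400, 389 and 383 FPKM in control libraries. Here all B deficiency libraries were below the control libraries, again without passing the test (log2 fold change -0.13, SE 0.0491, adjusted p = 0.0855). Without B deficiency library 2 the ANS gene passed, with a log2 fold change of -0.17 and an adjusted p of 0.00353, and with library weights its adjusted p was 0.0109, where the alternatives gave up to 0.267.

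**Figure D4:**
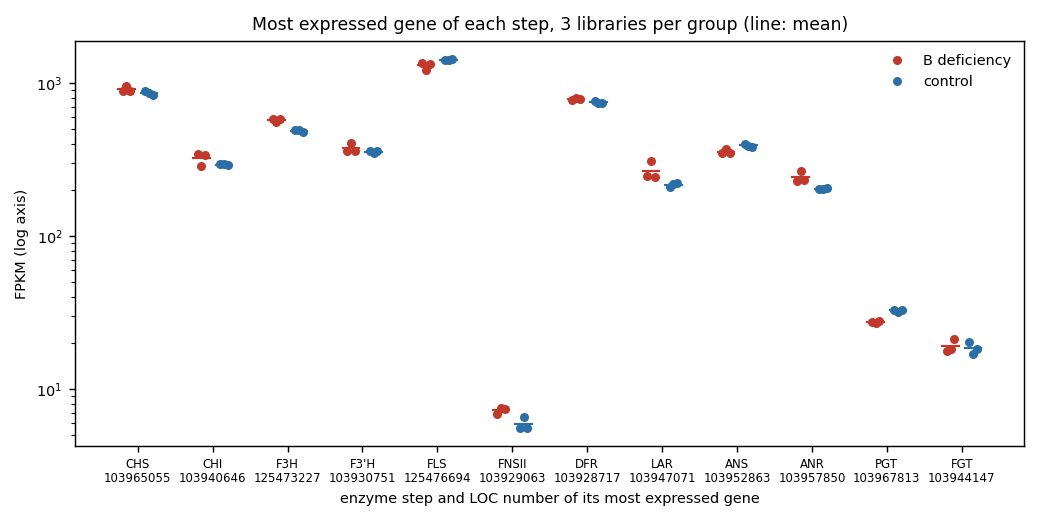
FPKM on a log axis of the most expressed gene of each enzyme step in the 3 B deficiency libraries (red, left) and the 3 control libraries (blue, right), with lines at the group means; FGT stands for flavonoid glycoside glycosyltransferases. The highest is FLS (LOC125476694), between 1220 and 1353 FPKM in B deficiency, against between 1410 and 1431 FPKM in control libraries, and the groups lie close together in every step.

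Leucoanthocyanidin reductase and anthocyanidin reductase each showed copies on either side of no change. Of the LAR genes, LOC103947071 had 246, 311 and 242 FPKM in B deficiency, against 210, 218 and 222 FPKM in control libraries. All B deficiency libraries were higher, library 2 most of all, and the difference did not pass the test with all libraries (log2 fold change 0.29, SE 0.0973, adjusted p = 0.0656). Without library 2 its log2 fold change was 0.17 and its adjusted p was 0.0061, where the alternatives gave up to 0.184. LOC103929197 was lower in B deficiency, with 83.5, 84.1 and 79.4 FPKM against 105, 97.0 and 97.0 FPKM in control libraries (log2 fold change -0.28, SE 0.0552, adjusted p = 0.00998). The third LAR gene, LOC103938522, had 59.8 ± 2.40 FPKM in B deficiency, against 58.6 ± 2.31 FPKM in control libraries (SD, n = 3 each). Of the summed LAR expression, LOC103947071 thus held 65.0% in B deficiency, against 57.8% in the control, and LOC103929197 held 20.3% and 26.6%.

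Of the ANR genes, LOC103957850 was higher, with 227, 266 and 232 FPKM in B deficiency, against 204, 202 and 207 FPKM in control libraries (log2 fold change 0.24, SE 0.0663, adjusted p = 0.035). Alternatives gave LOC103957850 an adjusted p of 0.00302 (without B deficiency library 2) up to 0.117. LOC103937289 had 138, 145 and 148 FPKM in B deficiency, against 158, 158 and 152 FPKM in control libraries. Its groups did not overlap and it did not pass the test (log2 fold change -0.12, adjusted p = 0.104). LOC103957769 had 39.2, 56.4 and 36.3 FPKM in B deficiency, against 36.4, 37.2 and 32.5 FPKM in control libraries, again with library 2 the highest. The last ANR gene, LOC125476201, stayed under 0.7 FPKM in every library. The sums of LAR and ANR were each close to the control, at ratios of 1.09 and 1.08.

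Among the sugar-transferring enzymes, 8 genes carry the KEGG ortholog of phlorizin synthase and a glycosyltransferase description. In apple, UDP-glycosyltransferases of the 88F type attach glucose to phloretin, a dihydrochalcone, and so make phlorizin. The most expressed of the 8, LOC103967813, described as UDP-glycosyltransferase 88F3-like, had 27.7, 27.2 and 28.0 FPKM in B deficiency, against 32.9, 32.2 and 33.1 FPKM in control libraries. The libraries of a group were close together and the groups did not overlap, and the gene was lower by a small amount (log2 fold change -0.25, SE 0.0526, adjusted p = 0.0133). Its adjusted p was 0.054 without control library 1 and 0.0572 without control library 3. The second, LOC103952554, described as 88F3, had 22.4, 24.0 and 22.7 FPKM in B deficiency, against 28.8, 26.5 and 27.3 FPKM in control libraries (log2 fold change -0.26, SE 0.0628, adjusted p = 0.0217), and it was lower as well. With a library left out, its adjusted p was under 0.05 in 2 of the 6 fits (up to 0.0852).

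The other glycosyltransferases of this group were expressed under 10 FPKM. LOC103966155, described as 88A1-like, was higher, with 1.42, 1.58 and 1.75 FPKM in B deficiency, against 0.76, 0.86 and 1.05 FPKM in control libraries (log2 fold change 0.77, SE 0.223, adjusted p = 0.0399). Its groups did not overlap, and its fold was under the minimum. With a library left out, its adjusted p was under 0.05 in 0 of the 6 fits (up to 0.117). LOC103967800, LOC103967781, LOC103958200 and LOC125476071 had log2 fold changes of -0.03, -0.23, 0.39 and 0.68, none of which passed the test, and LOC103966194 was listed at 0 in all 6 libraries. Since the 88F3 genes dominate, the summed expression was 71.1, 74.7 and 72.0 FPKM in B deficiency, against 81.8, 81.5 and 80.9 FPKM in control libraries, a ratio of 0.892. A further gene with the phlorizin synthase ortholog, LOC103956378, is described as a probable disease resistance protein with an NB-ARC domain. It had 3.62, 3.88 and 3.15 FPKM in B deficiency, against 4.06, 3.66 and 5.33 FPKM in control libraries, which overlapped.

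The last 5 genes encode enzymes that add a further sugar to flavonoid glycosides. LOC103944147, described as anthocyanidin 3-O-glucoside 2''-O-glucosyltransferase-like, had 17.7, 18.2 and 21.3 FPKM in B deficiency, against 20.2, 17.1 and 18.3 FPKM in control libraries. These values overlapped, and the log2 fold change was 0.04 (SE 0.0987, adjusted p = 0.798). LOC103937407 had 16.2, 9.96 and 16.5 FPKM in B deficiency, against 13.3, 13.3 and 9.98 FPKM in control libraries. LOC125480301 and LOC125476415 had log2 fold changes of -0.23 and 0.15, neither past the test, and LOC103931528 stayed under 0.35 FPKM. This was the only one of the 12 named steps whose summed expression overlapped between the groups, at 35.5 ± 4.69 FPKM in B deficiency, against 33.1 ± 2.72 FPKM in control libraries (SD, n = 3 each). For single genes the groups did not overlap in 45.1% of all genes tested and in 57.6% of those at 100 FPKM or more. The sums of FLS, flavone synthase II, DFR and ANS each rest on 1 tested gene, which did not pass the test.

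Set side by side, the step sums of B deficiency over control were 1.09 for CHS, 1.26 for CHI, 1.13 for F3H, 1.09 for F3'H and 1.05 for DFR. They were 0.919 for FLS, 0.912 for ANS and 0.892 for the phloretin-type glycosyltransferases. Flavone synthase II, at a low level, had a ratio of 1.22. The CHI sum includes CHI 3 (LOC103953741), with 346 FPKM in B deficiency, against 197 FPKM in control libraries. This gene gave most of the CHI difference, so 1.26 is not the ratio of the isomerase copies alone. No flavonoid gene switched between expressed and silent, as no gene had all libraries of a group at or under 0.05 FPKM and all of the other at or above 1 FPKM.

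Genes around the pathway were taken from lists matched on their descriptions. The called share of each list stands beside 8.19% of all genes tested. The upstream phenylpropanoid steps were phenylalanine ammonia-lyase, cinnamate 4-hydroxylase and 4-coumarate-CoA ligase. Of their 25 genes tested, 1 was called higher and 2 were called lower (12% called), with a median log2 fold change of -0.18. The largest rise was in novel3592, described as 4-coumarate--CoA ligase-like 9, with 8.99, 5.53 and 7.82 FPKM in B deficiency, against 2.13, 2.74 and 2.62 FPKM in control libraries (log2 fold change 1.52, SE 0.199, adjusted p = 0.00166). Another gene with this description, LOC103929133, had the largest fall, with 0.28, 0.48 and 0 FPKM in B deficiency, against 1.23, 1.41 and 1.45 FPKM in control libraries (log2 fold change -2.38, adjusted p = 0.0315). The groups did not overlap in either gene, and the fall was not called in 4 of the 6 fits with a library left out.

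In Arabidopsis, some MYB, bHLH and TTG1-type proteins act as a complex on flavonoid genes. Of the genes matched by name to such regulators, 18 were tested and 0 were called by limma. Without the minimum fold 1 was higher and 4 were lower at an adjusted p under 0.05, and 4 were higher and 5 were lower at an unadjusted p under 0.05. The median log2 fold change of the 18 was -0.20. Many of the 18 are described as transcription repressors (MYB5-like or MYB6-like), so this median mixes repressors with other regulators. The carriers were TT12-like and DETOXIFICATION-type genes of the MATE transporter family, of which TT12 brings flavonoids to the vacuole in Arabidopsis. Of their 14 genes tested, 2 were called higher and none lower (14.3% called), with a median of 0.29. The larger of these was the TT12-like gene LOC103944529, with 1.31, 0.74 and 1.25 FPKM in B deficiency, against 0.33, 0.18 and 0.37 FPKM in control libraries (log2 fold change 1.61, adjusted p = 0.0196). Its groups did not overlap, but its level was low and it was called in 3 of the 6 fits with a library left out.

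**Figure D5:**
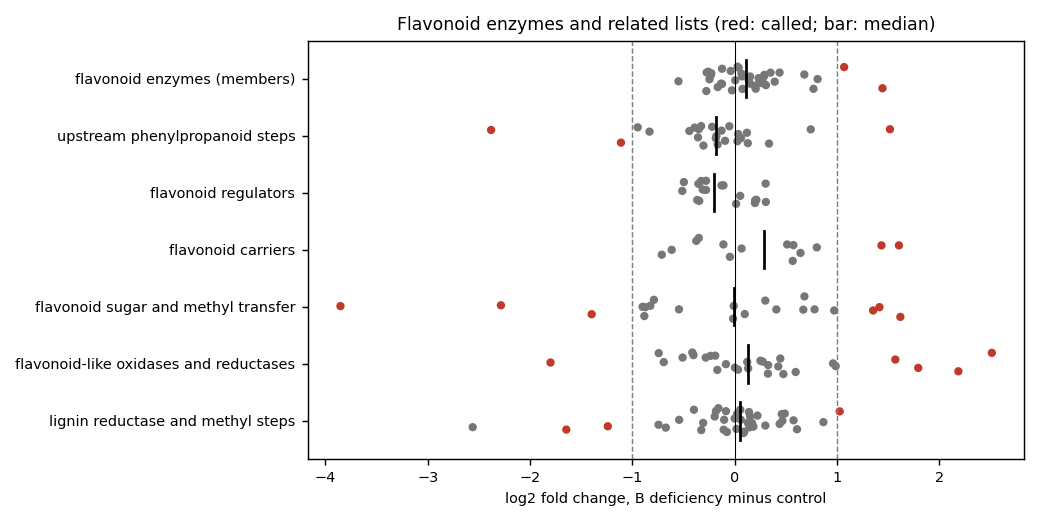
Log2 fold changes (B deficiency minus control) of the tested flavonoid genes and of the tested genes of 6 lists around the pathway; red points are called genes, black bars are medians and dashed lines mark the minimum fold. The flavonoid genes lie between -0.55 and 1.45, while the sugar and methyl transfer list reaches down to -3.85 and the oxidase and reductase list up to 2.51.

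The glycosyl- and methyltransferases outside the KEGG flavonoid pathway had 21 genes tested, of which 3 were called higher and 3 were called lower (28.6% called). Of these 21, 14 are named for a flavonoid or anthocyanidin substrate, with 3 called higher and 2 lower, and 7 carry a glycosyltransferase family name only, with 1 called lower. The largest fall was in LOC103942626, described by its family as UDP-glycosyltransferase 91C1-like, with 0.06, 0.19 and 0 FPKM in B deficiency, against 2.21, 2.83 and 1.97 FPKM in control libraries (log2 fold change -3.85, SE 0.46, adjusted p = 0.0011). The largest rise was in LOC103945853, described as UDP-glucose flavonoid 3-O-glucosyltransferase 7-like, with 1.14, 1.87 and 1.12 FPKM in B deficiency, against 0.40, 0.72 and 0.15 FPKM in control libraries (log2 fold change 1.62, adjusted p = 0.043). The fall held in every alternative tried, whereas the rise was called in only 6 of 14.

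Among oxygenases and reductases with descriptions close to flavonoid enzymes, 4 of 29 tested were called higher and 1 was called lower (17.2% called). All 5 are among the 15 DMR6-like oxygenases of this list. Of the 14 named for a flavonoid enzyme, 0 were called by limma, 2 were higher and 2 were lower at an adjusted p under 0.05, and 6 had an unadjusted p under 0.05. LOC103950717, described as DMR6-like oxygenase 2-like, had 54.0, 75.9 and 45.3 FPKM in B deficiency, against 10.1, 11.1 and 8.62 FPKM in control libraries (log2 fold change 2.51, SE 0.188, adjusted p = 0.000152). LOC103940252, described as DMR6-like oxygenase 1-like, had 7.44, 7.30 and 9.22 FPKM in B deficiency, against 26.8, 29.1 and 27.9 FPKM in control libraries (log2 fold change -1.80, adjusted p = 5.4e-05). In Arabidopsis, DMR6-type enzymes hydroxylate salicylic acid and share the dioxygenase family with FLS and ANS. Both genes were called in all alternatives.

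The lignin reductase and methyl steps, the other main outlet of the phenylpropanoid pathway, had 1 of 39 genes called higher and 2 called lower (7.69% called, median log2 fold change 0.06). The caffeic acid 3-O-methyltransferase-like gene LOC103956347 had 42.0, 37.7 and 41.0 FPKM in B deficiency, against 127, 124 and 126 FPKM in control libraries (log2 fold change -1.65, SE 0.0567, adjusted p = 9.37e-06). LOC103951572, of the same enzyme type, had 44.2, 39.8 and 45.3 FPKM in B deficiency, against 22.5, 19.4 and 21.5 FPKM in control libraries (log2 fold change 1.03, adjusted p = 0.000183). These copies moved in opposite directions with no overlap between the groups, and the call of the rise was lost in 2 of the 6 fits with a library left out.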

How the data were processed

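Poly(A) RNA of 6 root tip libraries was sequenced. Per the methods of the study, the authors filtered reads with FastQC 0.11.9, mapped them with STAR 2.7.9a to the genome of P. bretschneideri, another pear, and estimated expression with RSEM 1.3.3. The deposited values are FPKM with 2 decimals and no further scaling stated. The submitters' processing notes name HISAT2, Cufflinks 2.2.1, DESeq2 and mouse builds (mm8, mm9) instead, and no annotation release was found in these sources. The authors' columns of group means, ratios and log2 changes were not used, nor were 1010760 blank lines, and 0 library columns were left unassigned. Control columns, numbered in the table and lettered in the labels, were assigned through the replicate numbers of the sample titles. No reference sequence or coordinates were used.

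Counts cannot be read from FPKM, so intervals for counting error are left out, and the count test of the study was replaced by limma 3.58.1 (R 4.3.3; eBayes with a trend). The test was checked on simulated data with the same spread in all libraries and only large planted changes. That check does not cover an outlying library or small changes. With 3 libraries against 3, an exact permutation test cannot go below p = 0.1. Other steps used Python 3.11.15, numpy 2.4.6, pandas 2.3.3 and matplotlib 3.10.9. Intervals are 95% intervals of the limma fit.

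The genes, lists and tests were chosen with earlier results of these data known. Genes named with full values are those called, the most expressed of each step, those within 0.2 of the minimum log2 fold with an adjusted p under 0.05, genes silent in a group, and the largest called rise and fall of each list around the pathway. The remaining pathway genes were added so that each is accounted for. A few further genes of the lists were added by their group means, with the results known. LOC103957850, LOC103940646, LOC103947071, LOC125476694 and LOC103952863 are also given without B deficiency library 2. Alternatives were other pseudocounts, minimum FPKM, scaling, no trend, library weights, a replicate block, and each library left out in turn. Same-numbered libraries did not deviate together (correlations 0.040, 0.035 and -0.005), so the numbers were not taken as pairs.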

Additional observations from a re-analysis of the deposited data

How the results depend on the processing

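Of the counts, step ratios and genes recomputed under the alternatives, no called gene reversed its direction. The count of 2 flavonoid genes called higher was 0 with a pseudocount of 1 FPKM and 1 to 2 with a library left out (1 without B deficiency library 1 and 1 without control library 3). With the phenylpropanoid genes kept in the rule, 7 genes were called higher and 8 lower. With the replicate number as a block, 2 were called higher and 0 lower, and the 4 genes lower without a minimum fold became 2. The block is no pairing here, and its other counts stayed within 1.5 times. That count of 4 was 2 with median-of-ratios scaling and 1 to 8 with a library left out, with 8 without B deficiency library 2. The genes higher without a minimum fold numbered 6 to 12 with a library left out, and those with an interval within 0.5 of no change numbered 20 to 24.

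In the 6 lists around the pathway, 11 genes were called higher and 8 lower. The 11 became 6 with a pseudocount of 1 FPKM, 18 with no minimum FPKM and 8 to 14 with a library left out. The 8 became 6 to 13, with 13 without B deficiency library 2. With median-of-ratios scaling the step ratio was 1.17 for F3H, 1.08 for DFR, 0.945 for ANS and 0.924 for the phloretin-type glycosyltransferases. With quantile normalization it was 1.12 for F3H, 1.02 for DFR and 0.841 for FLS. With a library left out the ratios were 1.06 to 1.11 for CHS, 1.24 to 1.29 for CHI, 1.12 to 1.13 for F3H, 1.05 to 1.12 for F3'H, 0.902 to 0.949 for FLS, 1.19 to 1.298 for flavone synthase II, 1.04 to 1.06 for DFR, 1.03 to 1.13 for LAR, 0.892 to 0.925 for ANS, 1.04 to 1.11 for ANR and 0.879 to 0.902 for the phloretin-type glycosyltransferases. The cause of these shifts was not tested. Values under 1 FPKM rest on few fragments, so changes of minor copies are the least certain.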
